A study of Mus musculus with 24 samples.

Results

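Dietary restriction (DR) was set directly against rapamycin (Rapa) in the epididymal fat pad of C57BL6/J males, across every gene detected on the arrays. The members are the 8 DR and the 8 Rapa arrays, named by their column labels, which make 16 of the 24 arrays of the series. DR mice were on 40% dietary restriction and Rapa mice received 14 ppm rapamycin. Each treatment was started at an age of 2 months and given for 6 months, and all mice were 8 months old at the end. The remaining 8 arrays, from mice fed ad libitum, entered the normalization and the estimate of spread and gave no contrast. The labels list 1 array per sample without saying that the samples are different animals, and p-values therefore reflect only the spread among these samples, which may be technical. The title of the series sets the response to rapamycin beside the response to restriction, and the direct contrast asks at which genes the 2 treatments left this tissue at different transcript levels.

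White fat stores energy as triglyceride and secretes hormones such as leptin that report the size of the store. Restriction lowers energy intake and shrinks this store, and restricted rodents are known to alternate between fatty acid synthesis after a meal and fat burning between meals. Rapamycin binds the immunophilin encoded by Fkbp1a, and the pair inhibits mTOR complex 1, the kinase that couples nutrient supply to protein and lipid synthesis.

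Array brightness overlapped between the groups. The 75th percentile of background-subtracted intensity averaged 44.1 ± 22.4 on DR arrays and 51.4 ± 30.3 on Rapa arrays (SD, n = 8 each, exact two-sided permutation p = 0.591, adjusted p over 4 array measures 0.591). Raw brightness followed the sample number in steps of 4: the 75th percentile was 15 to 23 for numbers 1 and 5 and 73.7 to 106.7 for numbers 2 and 6. The labels do not say what this number class is. The labels contradict each other on the organ, with epididymal fat as the source and liver in the tissue entry and the extraction text. All 16 arrays detected 15 of the 17 adipocyte markers that have a probe, whereas Alb, Fgb, Apob, Cyp7a1, F2, Tat and Uox, which mark hepatocytes, were detected on 0 of the 16. Of the 20 hepatocyte markers listed, all with a probe, 4 were detected on enough arrays to be measured. Among these, Cyp2e1 was detected on all 16 arrays and Apoc3 on 8 DR and 5 Rapa arrays. Transcripts of epididymis and testis, organs that adjoin this fat pad, were on 7 arrays named in earlier results of these data, DR1, DR3, DR5, DR8, Rapa6, Rapa7 and Rapa8. Each of the 7 had 6 to 19 of the 26 measured epididymis and testis markers above a level of 8. Such transcripts were not confined to them, since DR7 also had 6, Rapa2 had 5 and DR4 and DR6 had 1 each, while DR2, Rapa1, Rapa3, Rapa4 and Rapa5 had 0. Counts without the 7 arrays are given beside most results. Their removal leaves DR2, DR4, DR6 and DR7 against Rapa1 to Rapa5, so a call can be lost through the smaller groups alone.

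Restriction and rapamycin left the fat pad with different transcript levels at 1123 of 9836 genes (11.4%). Of these, 578 were higher in DR (5.88% of the genes) and 545 were lower in DR (5.54%). Calls rest on limma at an adjusted p below 0.05, adjusted over all 17165 probes kept, and fold changes below are log2 of DR over Rapa with the standard error (SE) of that fit. Levels are log2 intensity after normalization. Among the called genes, 907 differed by at least 1.5-fold and 348 by at least 2-fold, while the median over all genes was -0.01. The DR and Rapa arrays did not overlap at 222 genes (2.26%), 128 with all DR arrays higher and 94 with all DR arrays lower, and 221 of these 222 were called. After removal of the 7 arrays, 761 genes were called (7.74%), of which 595 were among the 1123; 335 of the 761 were higher in DR (3.41%) and 426 lower (4.33%). With the number class as a blocking factor 1887 genes were called (19.2%), 984 higher (10%) and 903 lower (9.18%), and counts from either fit are read against its own share. In bulk tissue, fewer cells of a type and less RNA per cell cannot be told apart.

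**Figure D1:**
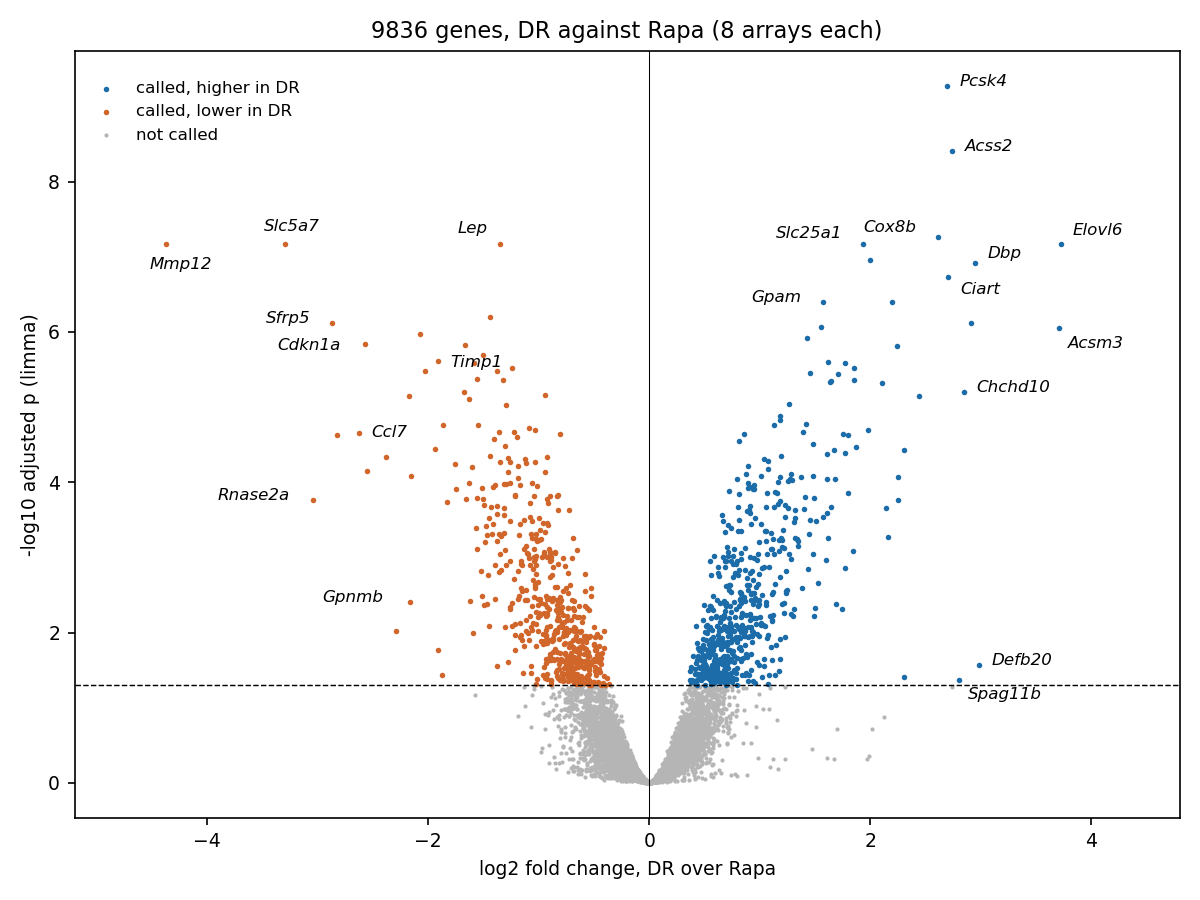
Log2 fold change of DR over Rapa (x axis) against -log10 of the limma adjusted p (y axis) for 9836 genes, with the dashed line at the threshold of 0.05. The 578 genes called higher in DR lie to the right and the 545 called lower in DR to the left, with Pcsk4, Acss2, Mmp12 and Slc5a7 near the outer edges of the cloud.

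The genes furthest above in DR were led by Elovl6, the elongase that turns palmitate into stearate. Its level was 10.91 to 12.29 (median 11.61) on DR arrays and 6.62 to 9.65 (median 7.52) on Rapa arrays, a difference of 3.72 ± 0.35 (SE, adjusted p = 6.73e-08). Every DR array lay above every Rapa array. Acsm3, a medium-chain acyl-CoA synthetase of mitochondria, lay at 9.97 to 11.53 (median 10.29) on DR arrays and 5.63 to 8.64 (median 7.05) on Rapa arrays, again without overlap (3.71 ± 0.41, adjusted p = 8.76e-07). Pcsk4, a proprotein convertase best known from germ cells, had the lowest adjusted p of the genes named here. DR arrays spanned 7.87 to 8.41 (median 8.18) and Rapa arrays 4.88 to 6.30 (median 5.48), a difference of 2.69 ± 0.19 (adjusted p = 5.3e-10). With the 7 arrays left out, the difference at Pcsk4 was 2.58 (adjusted p = 9.61e-06), and all 4 of its kept probes were called higher in the full comparison.

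Others of the 12 genes with the highest fold change and no overlap were Chchd10, which encodes a mitochondrial intermembrane protein, Depp1, a FOXO target, Nrg4, a hormone of the epidermal growth factor family secreted by fat, and Cyp2e1, a cytochrome P450 of liver that fat also expresses. Chchd10 measured 11.90 to 12.80 (median 12.43) in DR and 8.03 to 11.46 (median 8.94) in Rapa (2.85 ± 0.36, adjusted p = 6.26e-06). Nrg4 measured 10.28 to 11.28 (median 10.66) in DR and 6.98 to 9.13 (median 8.84) in Rapa (2.24 ± 0.26, adjusted p = 1.55e-06). Depp1 differed by 2.44 ± 0.31 (adjusted p = 7.19e-06) and Cyp2e1 by 2.30 ± 0.33 (adjusted p = 3.71e-05). Of these 4 genes, Cyp2e1 and Chchd10 had the widest Rapa ranges, 10.60 to 13.82 and 8.03 to 11.46. The remaining members of the 12, Dbp, Ciart, Acacb, Acss2 and Cox8b, are described with their groups.

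At the other end stood Mmp12, the elastase of macrophages. It was detected on 2 of 8 DR arrays, with levels of 4.39 to 6.41 (median 4.88), against 8.24 to 11.50 (median 9.33) on the 8 Rapa arrays, all of which detected it (-4.37 ± 0.41, adjusted p = 6.73e-08). The groups did not overlap, and the highest DR array, DR7 at 6.41, still lay below the lowest Rapa array. The other 6 DR arrays did not detect Mmp12, so the size of its difference depends on background there. Slc5a7, the high-affinity choline transporter, was detected on 0 DR arrays and on all 8 Rapa arrays, where it spanned 6.70 to 9.85 (median 7.85). Its level was at least 6.31-fold lower in DR (adjusted p = 6.73e-08); this bound sets the mean of the Rapa arrays against the lowest signal detected on each DR array. Rgs1, a regulator of G protein signalling in leukocytes, was detected on 3 of 8 DR arrays and lay at 4.47 to 6.04 (median 4.68), against 6.70 to 9.19 (median 7.58) in Rapa (-2.83 ± 0.40, adjusted p = 2.37e-05). One of its 3 kept probes was called.

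Cdkn1a, the cell cycle inhibitor p21, lay at 6.93 to 9.37 (median 7.86) on DR arrays and 9.96 to 11.71 (median 10.61) on Rapa arrays (-2.57 ± 0.29, adjusted p = 1.44e-06). S100a8, a calcium-binding alarmin of neutrophils and other myeloid cells, lay at 6.75 to 8.15 (median 7.69) in DR and 8.50 to 11.90 (median 10.22) in Rapa (-2.56 ± 0.39, adjusted p = 7.06e-05). Neither gene had overlapping arrays, and all 3 kept probes of Cdkn1a were called lower. Lipf, a lipase known from the stomach, was detected on 2 of 8 DR arrays and differed by -2.38 ± 0.35 (adjusted p = 4.55e-05). Syp, the synaptic vesicle protein synaptophysin, lay at 7.52 to 8.47 (median 7.86) in DR and 8.87 to 10.86 (median 9.72) in Rapa (-2.03 ± 0.25, adjusted p = 3.3e-06). Hspb7, a small heat shock protein of muscle, was detected on 1 of 8 DR arrays and on all Rapa arrays, and its difference likewise depends on background (-2.08 ± 0.23, adjusted p = 1.06e-06).

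**Figure D2:**
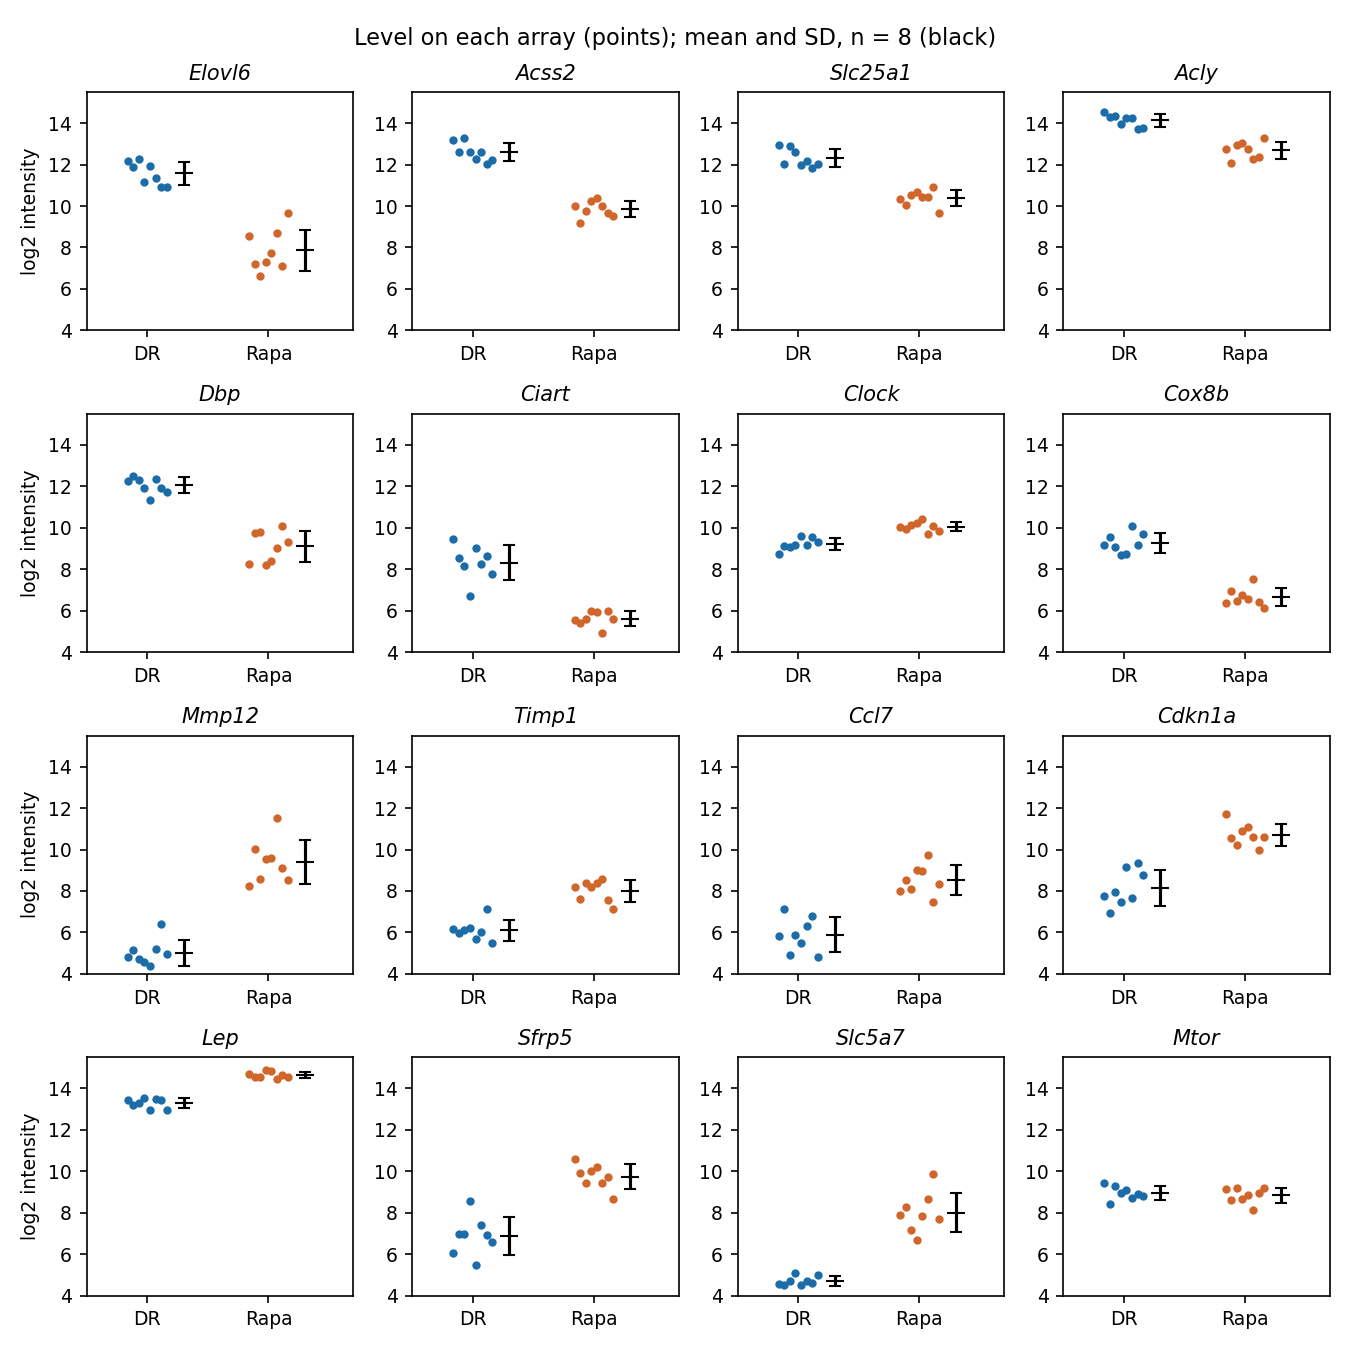
Log2 intensity (y axis) of 16 genes on each of the 8 DR arrays (left in each panel) and the 8 Rapa arrays (right), with the mean and SD in black. The arrays do not overlap in the panels of Elovl6, Acss2, Slc25a1, Acly, Dbp, Ciart, Clock, Cox8b, Mmp12, Ccl7, Cdkn1a, Lep, Sfrp5 and Slc5a7; they overlap at Timp1 and Mtor.

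Genes of fatty acid synthesis from carbohydrate were higher in DR. Of 17 measured members of the de novo lipogenesis list 10 were called higher and 0 lower, with a median of 1.14 beside -0.01 over all genes, and 6 had no overlap between groups. The route starts with citrate export from mitochondria. Slc25a1, the citrate carrier, lay at 11.82 to 12.97 (median 12.11) on DR arrays and 9.67 to 10.90 (median 10.43) on Rapa arrays (1.94 ± 0.18, adjusted p = 6.73e-08). Acly, which cleaves citrate to cytosolic acetyl-CoA, lay at 13.69 to 14.54 (median 14.25) in DR and 12.07 to 13.26 (median 12.75) in Rapa (1.45 ± 0.18, adjusted p = 3.52e-06). Acss2, which makes acetyl-CoA from acetate, lay at 12.02 to 13.27 (median 12.59) in DR and 9.19 to 10.41 (median 9.87) in Rapa (2.74 ± 0.22, adjusted p = 3.99e-09). At each of these 3 suppliers of acetyl-CoA the lowest DR array was above the highest Rapa array.

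Acacb, the acetyl-CoA carboxylase isoform placed at mitochondria, lay at 9.58 to 11.01 (median 10.66) in DR and 5.92 to 8.70 (median 7.57) in Rapa (2.91 ± 0.32, adjusted p = 7.61e-07). Acaca, the cytosolic isoform, was detected on 0 DR arrays and 1 Rapa array and was not tested. Fasn, fatty acid synthase, was a dim probe, detected on 6 DR and 5 Rapa arrays, with overlapping levels of 4.79 to 7.75 (median 6.59) in DR and 4.79 to 5.95 (median 5.26) in Rapa. Its difference of 1.14 ± 0.35 (adjusted p = 0.0365) lost the call in 10 of 16 fits that left out 1 array, over which its adjusted p ran from 0.00656 to 0.0828, and without the 7 arrays (1.60, adjusted p = 0.052). Scd1, the desaturase that makes oleate, was already bright and differed by 0.56 ± 0.12 (adjusted p = 0.00171), with 14.00 to 14.38 (median 14.07) in DR and 13.34 to 13.98 (median 13.55) in Rapa and no overlap. Scd2, its paralog, did not pass (0.26 ± 0.42, adjusted p = 0.79).

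The transcription factors of the route overlapped between groups. Srebf1, the sterol and insulin responsive factor, lay at 8.38 to 10.17 (median 9.24) in DR and 7.47 to 8.87 (median 7.82) in Rapa (1.32 ± 0.23, adjusted p = 0.000298); without the 7 arrays its difference of 0.85 did not pass (adjusted p = 0.0743). Mlxipl, the carbohydrate responsive factor, did not pass either (0.69 ± 0.30, adjusted p = 0.159). Thrsp, a lipogenic nuclear protein, was called higher (1.44 ± 0.26, adjusted p = 0.000487). Without the 7 arrays the list had 9 members higher and 0 lower. Its median within the 4 number classes, each holding 2 DR and 2 Rapa arrays, was 1.20, 1.56, 0.72 and 1.15.

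The supply of NADPH, which fatty acid synthesis consumes, showed 3 of 9 measured members higher and 0 lower, with a median of -0.03. The 3 were Me1, malic enzyme (1.51 ± 0.27, adjusted p = 0.000325), Tkt, transketolase (1.49 ± 0.35, adjusted p = 0.00595), and Taldo1, transaldolase (0.81 ± 0.12, adjusted p = 2.86e-05). Taldo1 alone of these had no overlap, with 12.53 to 13.11 (median 12.80) in DR and 11.78 to 12.25 (median 11.98) in Rapa. The list had 3 higher and 0 lower without the 7 arrays, with a median of 0.21. Its member Me1 is also counted in the de novo lipogenesis list.

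Genes that build and store triglyceride followed, with 9 of 19 measured members higher and 1 lower (median 0.50). Gpam, the acyltransferase of the first step, lay at 7.17 to 8.34 (median 7.97) on DR arrays and 5.78 to 6.73 (median 6.35) on Rapa arrays without overlap (1.57 ± 0.16, adjusted p = 4.05e-07). Pck1, which makes the glycerol backbone from small precursors, lay at 7.48 to 10.01 (median 8.84) in DR and 5.04 to 8.21 (median 6.84) in Rapa, and the groups overlapped (2.16 ± 0.40, adjusted p = 0.000531). Lpin1, the phosphatidate phosphatase, was higher (1.16 ± 0.20, adjusted p = 0.000192) and its paralog Lpin2 lower (-0.49 ± 0.14, adjusted p = 0.0285). The probe of Lpin2 was dim, was detected on 2 DR and 6 Rapa arrays, and lost its call in 7 of 16 fits leaving out 1 array (adjusted p up to 0.0629). With the 7 arrays left out 9 members were higher and 0 lower, and Lpin2 was no longer called. Cidec and Plin1, which coat the lipid droplet, did not pass.

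Lipolysis genes changed at 3 of 10 measured members upward and 1 downward (median 0.21). Hcar2, the receptor for beta-hydroxybutyrate that restrains lipolysis, differed by 1.23 ± 0.32 (adjusted p = 0.0115). Pnpla2 and Lipe, the lipases of triglyceride and diglyceride, differed by 0.63 ± 0.18 and 0.71 ± 0.22 (adjusted p = 0.0229 and 0.0364). Lipe lost its call in 7 of 16 fits leaving out 1 array and Pnpla2 in 1, with adjusted p-values up to 0.0801 and 0.056. G0s2, the inhibitor of the triglyceride lipase, was lower (-0.75 ± 0.18, adjusted p = 0.00607). None of the 3 higher members was called without the 7 arrays, whereas G0s2 was.

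Uptake and binding of fatty acids showed 2 of 14 measured members higher and 0 lower, with a median of 0.01. These were Slc27a1, a fatty acid transport protein (1.11 ± 0.24, adjusted p = 0.00311), and Fabp5, a fatty acid binding protein detected on 6 DR and 5 Rapa arrays (1.15 ± 0.31, adjusted p = 0.0148). Lpl, the lipoprotein lipase that releases fatty acids from circulating triglyceride, lay at 14.88 to 15.17 (median 14.98) in DR and 14.90 to 15.08 (median 15.02) in Rapa and differed by 0.01 ± 0.10. It ranked from 1 to 6 in brightness on every one of these arrays, where quantile normalization leaves few values to take, and it took 6 distinct values on the 16 arrays, so its spread is limited by the top of the scale. Under median scaling its difference was 0.14. Its second kept probe was called, while the brightest, used here, was not. The list had 2 members higher and 0 lower without the 7 arrays. Slc27a1 is also counted among the genes that build and store triglyceride.

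Mitochondrial genes of pyruvate use, enzymes and inhibitory kinases counted together, were often higher in DR as well. The list of pyruvate entry and TCA cycle had 10 of 23 measured members higher and 0 lower (median 0.58), and 21 of the 23 differences were above 0. Pcx, pyruvate carboxylase, lay at 9.08 to 9.88 (median 9.73) on DR arrays and 6.77 to 8.42 (median 7.88) on Rapa arrays without overlap (1.78 ± 0.21, adjusted p = 2.63e-06). Pdhb, a subunit of pyruvate dehydrogenase, differed by 1.20 ± 0.27 (adjusted p = 0.00412). Of the kinases that switch this enzyme off, Pdk1 and Pdk2 were higher (1.25 ± 0.27 and 1.19 ± 0.20, adjusted p = 0.00275 and 0.000177), whereas Pdk4, the isoform induced by fasting, lay at 8.08 to 9.33 (median 8.69) in DR and 6.14 to 9.43 (median 8.20) in Rapa and did not pass (0.58 ± 0.31, adjusted p = 0.289). The list had 10 higher and 0 lower without the 7 arrays. In the fit blocked by number class it had 15 higher and 1 lower.

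Oxidative phosphorylation showed small differences in one direction. Of 40 measured subunits 14 were called higher and 0 lower, and 39 of the 40 differences were above 0, with a median of 0.46. Among the called members, Ndufb9 and Ndufs7 of complex I differed by 0.91 ± 0.22 and 0.80 ± 0.14 (adjusted p = 0.00681 and 0.000211), Uqcrc2 of complex III by 0.74 ± 0.13 (adjusted p = 0.000403) and Cyc1, cytochrome c1, by 0.71 ± 0.14 (adjusted p = 0.000839). The summed intensity of the 40 subunits was 180633 to 208633 on DR arrays and 132079 to 161022 on Rapa arrays, and these ranges did not overlap. Such a sum is set mainly by its brightest members. The median level of the 40 subunits on an array was 11.51 to 12.05 in DR and 10.90 to 11.57 in Rapa, with overlap. The count depended on the arrays and the fit, with 7 higher without the 7 arrays (Uqcrc2 and Cyc1 not among them, adjusted p = 0.059 and 0.12) and 28 higher in the fit blocked by number class. Within the 4 number classes the median was 0.40, 0.44, 0.31 and 0.49.

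Beta-oxidation had 5 of 18 measured members higher and 0 lower (median 0.39). Echs1, which hydrates enoyl-CoA, differed by 0.89 ± 0.19 (adjusted p = 0.00232), and Cpt2, the inner carnitine acyltransferase, by 0.71 ± 0.19 (adjusted p = 0.0148). After removal of the 7 arrays 3 members were called, and Cpt2 at 0.26 was not among them (adjusted p = 0.532). In the fit blocked by number class 8 were called higher.

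Breakdown of branched-chain amino acids had 3 of 18 measured members higher and 0 lower (median 0.41). All 18 differences were above 0. Bcat2, the mitochondrial transaminase that begins the pathway, lay at 10.25 to 10.92 (median 10.58) in DR and 8.20 to 10.25 (median 9.59) in Rapa without overlap, though the nearest arrays of the groups share the printed value (1.14 ± 0.24, adjusted p = 0.00227). Without the 7 arrays 0 members were called by limma, with 4 at an unadjusted p under 0.05, and Bcat2 differed by 0.56 (adjusted p = 0.171), while 9 members were called in the fit blocked by number class.

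Glycolysis had 4 of 15 measured members higher and 1 lower (median 0.41). Pfkl and Pfkm, phosphofructokinase isoforms of liver and muscle, were higher without overlap (0.89 ± 0.14 and 0.68 ± 0.14, adjusted p = 0.000118 and 0.00113). Pfkp, the platelet isoform, was lower without overlap, at 6.87 to 7.81 (median 7.52) in DR and 7.82 to 9.63 (median 8.32) in Rapa (-0.99 ± 0.22, adjusted p = 0.00356). The brightest probes of these isoforms of 1 enzyme thus lay on opposite sides, though 1 of 2 kept probes was called for Pfkm and for Pfkp. Gapdh, often used as a reference transcript, was called higher (0.83 ± 0.20, adjusted p = 0.00617). When the 7 arrays were dropped 3 members were higher and 1 lower, and Gapdh was lost (0.47, adjusted p = 0.243). In the fit blocked by number class 8 members were higher.

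Cholesterol synthesis had 4 of 16 measured members higher and 1 lower (median 0.12). Insig1, which retains the sterol sensor in the endoplasmic reticulum, lay at 8.95 to 10.77 (median 9.51) in DR and 7.11 to 8.71 (median 8.15) in Rapa without overlap (1.64 ± 0.28, adjusted p = 0.000211). Pmvk, phosphomevalonate kinase, was higher (1.01 ± 0.25, adjusted p = 0.00784) and Hsd17b7, a late enzyme of the route, lower (-0.75 ± 0.19, adjusted p = 0.00975). After removal of the 7 arrays 2 members were higher and 1 lower, and Pmvk was not called (1.05, adjusted p = 0.0777).

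**Figure D3:**
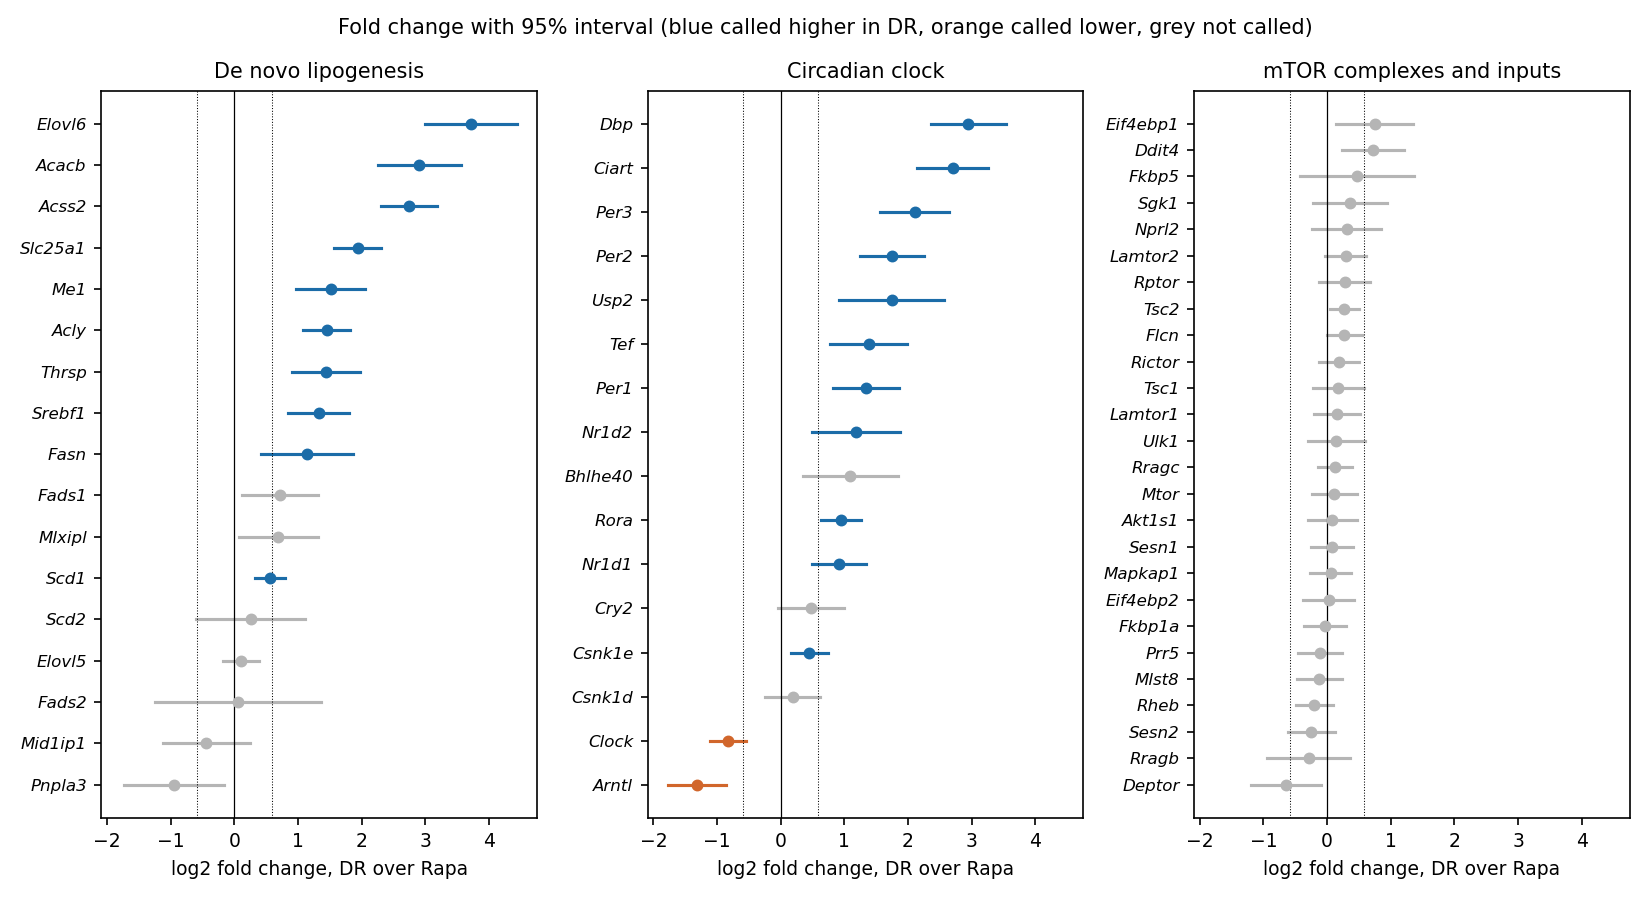
Log2 fold change of DR over Rapa with its 95% interval (x axis) for each measured gene (y axis) of the de novo lipogenesis, circadian clock and mTOR lists; dotted lines mark 1.5-fold. Called members number 10 of 17 in the first list, 13 of 16 in the second and 0 of 26 in the third.

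The circadian clock had the largest share of members called among the 43 lists. Of 16 measured members 11 were higher and 2 lower in DR, and the median was 1.14. The clock of each cell is a loop in which CLOCK and ARNTL activate genes through E-box elements, PER and CRY proteins repress them, and the output factors DBP and TEF act on D-box elements. Neither the hour of tissue collection nor the feeding time of the restricted mice is given in the sources used here. Promoters of called members are shown first because they differ in these letters. RefSeq windows on GRCm38.p6, which span 250 bases before to 50 after an annotated start, were found for 12 of the 13 called members (20 windows in all), and Per2 was the other one. CACGTG, the palindromic core of the E-box, occurred in 4 of the 20 windows, 1 each of Ciart and Per1 and both of Tef. TTATGTAA, a D-box form searched on both strands, occurred in Per3, and TTACGTAA, a palindromic form, in 0 of the 12 genes. Among all 32851 windows of the table, 7.15% held CACGTG, 0.938% held TTATGTAA and 0.119% held TTACGTAA. No 2 of the motifs found overlapped. A match is a description of letters and not evidence of binding. The 250 bases before the start are printed 5′ to 3′ on the gene's strand, with the motif in capitals.
Ciart (3 copies of CACGTG; chr3:95882229-95882478, minus strand): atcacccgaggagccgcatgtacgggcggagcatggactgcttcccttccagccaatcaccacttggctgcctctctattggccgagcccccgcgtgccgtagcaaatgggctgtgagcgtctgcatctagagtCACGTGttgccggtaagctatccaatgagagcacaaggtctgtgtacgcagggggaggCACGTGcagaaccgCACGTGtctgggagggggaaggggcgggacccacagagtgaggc
Per1 (1 copy of CACGTG; chr11:69098699-69098948, plus strand): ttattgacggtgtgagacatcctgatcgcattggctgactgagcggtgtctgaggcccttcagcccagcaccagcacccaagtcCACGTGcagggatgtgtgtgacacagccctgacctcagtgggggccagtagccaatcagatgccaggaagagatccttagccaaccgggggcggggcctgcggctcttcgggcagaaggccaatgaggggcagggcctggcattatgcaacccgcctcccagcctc
Tef (1 copy of CACGTG; chr15:81802423-81802672, plus strand): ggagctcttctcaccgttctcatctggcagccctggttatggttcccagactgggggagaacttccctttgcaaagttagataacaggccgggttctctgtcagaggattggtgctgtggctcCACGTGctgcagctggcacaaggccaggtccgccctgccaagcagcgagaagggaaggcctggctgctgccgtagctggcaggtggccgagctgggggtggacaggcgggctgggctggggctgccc
Per3 (2 copies of TTATGTAA; chr4:151044666-151044915, minus strand): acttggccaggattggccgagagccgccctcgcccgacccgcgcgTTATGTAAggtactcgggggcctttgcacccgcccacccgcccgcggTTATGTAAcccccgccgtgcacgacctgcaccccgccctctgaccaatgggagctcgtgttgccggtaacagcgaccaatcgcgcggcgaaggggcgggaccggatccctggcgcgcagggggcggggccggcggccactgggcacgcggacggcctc

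Arntl and Clock, the activating pair, were lower in DR. Arntl lay at 4.66 to 6.01 (median 4.78) on DR arrays, 1 of which detected it, and at 5.16 to 6.82 (median 6.49) on Rapa arrays, all of which did (-1.32 ± 0.22, adjusted p = 0.00022). DR1 at 6.01 stood apart from the other DR arrays. Clock lay at 8.73 to 9.62 (median 9.18) in DR and 9.72 to 10.41 (median 10.07) in Rapa without overlap (-0.83 ± 0.14, adjusted p = 0.000148).

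Ciart and the 3 Per genes, all repressors, were higher. Ciart, a repressor of the CLOCK and ARNTL pair and the gene whose promoter above carries 3 E-box cores, lay at 6.73 to 9.47 (median 8.40) in DR and 4.91 to 5.99 (median 5.61) in Rapa without overlap (2.70 ± 0.27, adjusted p = 1.86e-07). Per3, whose promoter carries the D-box letters, lay at 7.88 to 9.03 (median 8.09) in DR and 5.20 to 7.35 (median 6.11) in Rapa without overlap (2.11 ± 0.26, adjusted p = 4.78e-06). Per2 lay at 9.45 to 10.57 (median 10.22) in DR and 7.50 to 9.62 (median 8.39) in Rapa with some overlap (1.75 ± 0.24, adjusted p = 2.3e-05). Per1, with 1 E-box core, lay at 7.45 to 9.37 (median 8.52) in DR and 6.63 to 7.74 (median 7.47) in Rapa (1.34 ± 0.25, adjusted p = 0.000706). Cry2 did not pass, and Cry1 was detected on 0 DR arrays and 1 Rapa array and was not tested.

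Output factors and nuclear receptors of the list were called higher at Dbp, Tef, Nr1d1, Nr1d2 and Rora. Dbp, an output activator, lay at 11.34 to 12.50 (median 12.10) on DR arrays and 8.20 to 10.08 (median 9.17) on Rapa arrays without overlap (2.94 ± 0.29, adjusted p = 1.2e-07). Its window held none of the 3 motifs. Nr1d1, the receptor REV-ERB alpha that represses Arntl, lay at 7.20 to 8.04 (median 7.64) in DR and 6.24 to 7.29 (median 6.66) in Rapa (0.92 ± 0.20, adjusted p = 0.00365). A further 5 called members were not taken in by the naming rule and were picked with their values in view. They are Tef, the output factor, at 1.38 ± 0.30, Usp2, a deubiquitinase, at 1.74 ± 0.40, Nr1d2, the second REV-ERB receptor, at 1.18 ± 0.34, Rora, the activator that competes with these receptors, at 0.94 ± 0.15, and Csnk1e, a kinase of PER proteins, at 0.45 ± 0.14. With the 7 arrays left out 9 members were higher and 2 lower with a median of 1.60, and Nr1d1 was no longer called (0.72, adjusted p = 0.119). Within the 4 number classes the median of the list was 1.55, 1.37, 0.58 and 1.13.

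Hormones of fat differed with opposite signs. The list of adipokines and fat-mass genes had 2 of 16 measured members higher and 4 lower (median -0.33). Lep, leptin, lay at 12.95 to 13.55 (median 13.36) on DR arrays and 14.44 to 14.88 (median 14.60) on Rapa arrays (-1.35 ± 0.13, adjusted p = 6.73e-08). The highest DR array lay below the lowest Rapa array. Sfrp5, a secreted antagonist of Wnt signalling, lay at 5.46 to 8.58 (median 6.97) in DR, where 7 of 8 arrays detected it, and 8.66 to 10.59 (median 9.83) in Rapa (-2.87 ± 0.31, adjusted p = 7.61e-07). Trp53inp2, a nuclear and autophagy cofactor, was lower (-1.61 ± 0.24, adjusted p = 6.18e-05), as was Rarres2, the chemoattractant chemerin (-1.01 ± 0.19, adjusted p = 0.000608). Rbp4, the retinol carrier, was higher (0.99 ± 0.25, adjusted p = 0.011). The other higher member, Nampt, passed narrowly (0.69 ± 0.23, adjusted p = 0.0498). Nampt lost the call in 12 of 16 fits leaving out 1 array, with adjusted p up to 0.104, and without the 7 arrays (adjusted p = 0.0631). Adipoq, adiponectin, lay at 13.32 to 13.87 (median 13.67) in DR and 12.79 to 13.65 (median 13.53) in Rapa and did not pass, with a 95% interval of -0.13 to 0.47. The list had 1 member higher and 4 lower without the 7 arrays.

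Genes known from brown and beige adipocytes had 3 of 10 measured members higher and 0 lower (median 0.34). Cox8b, a cytochrome c oxidase subunit, lay at 8.70 to 10.09 (median 9.16) in DR and 6.15 to 7.55 (median 6.52) in Rapa without overlap (2.62 ± 0.24, adjusted p = 5.39e-08). Cidea, a lipid droplet protein, lay at 6.50 to 8.29 (median 7.24) in DR and 5.09 to 6.35 (median 5.71) in Rapa without overlap (1.67 ± 0.24, adjusted p = 3.71e-05). Ppargc1b, a coactivator of mitochondrial genes, was also higher (1.28 ± 0.25, adjusted p = 0.00105). Ucp1, the uncoupling protein that defines brown fat, was detected on 0 arrays of either group. Without the 7 arrays the list's median was -0.03, with 2 members called higher, and Ppargc1b was lost (0.90, adjusted p = 0.106).

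Adipogenic factors had 4 of 18 measured members higher and 0 lower (median 0.10). Pparg, the master regulator of fat cells, differed by 0.62 ± 0.20 (adjusted p = 0.0407) and lost the call in 10 of 16 fits leaving out 1 array, with adjusted p from 0.0141 to 0.0887. Rxra, its partner receptor, and Stat5a, a cytokine responsive factor, differed by 0.70 ± 0.19 and 0.58 ± 0.13 (adjusted p = 0.0149 and 0.00497). With the 7 arrays left out 2 factors were higher and 1 lower, and Rxra was not called (adjusted p = 0.221). Adipocyte markers as a whole had 4 of 17 measured members higher and 1 lower (median 0.42). Their summed intensity, set mainly by the brightest members, was 104290 to 143972 on DR arrays and 100160 to 144684 on Rapa arrays. The median level of the 17 markers on an array was 10.80 to 12.28 (median 11.16) in DR. In Rapa it was 9.57 to 10.97 (median 10.21), so that the ranges overlapped. Of these markers 2 were higher and 1 lower without the 7 arrays.

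Insulin, IGF1 and FOXO signalling had 2 of 21 measured members higher and 2 lower (median 0.07). Akt2, the kinase of insulin action in fat, was higher (1.10 ± 0.21, adjusted p = 0.000781), as was Grb10, an adaptor that restrains insulin signalling (0.77 ± 0.18, adjusted p = 0.00617). Grb14, a related adaptor, was lower, at 4.93 to 6.17 (median 5.33) on DR arrays, 5 of which detected it, and 6.03 to 7.94 (median 6.98) on Rapa arrays (-1.55 ± 0.21, adjusted p = 1.72e-05). Igfbp5, a binding protein of insulin-like growth factors, was lower (-1.03 ± 0.22, adjusted p = 0.00254) and was not called without the 7 arrays (-0.68, adjusted p = 0.137). Igf1 did not pass (-0.12 ± 0.19, adjusted p = 0.782), and the list had 3 higher and 1 lower in that fit. Glucocorticoid-responsive genes had 4 of 17 higher and 1 lower (median 0.46), among them Hsd11b1, which regenerates active glucocorticoid (0.94 ± 0.21, adjusted p = 0.00295), and Klf9, a glucocorticoid target (0.71 ± 0.18, adjusted p = 0.0094). Both were lost without the 7 arrays (adjusted p = 0.136 and 0.108), where 2 of these genes were higher and 1 lower. Fkbp5, a further target and an immunophilin, did not pass (0.46 ± 0.44, adjusted p = 0.603).

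Extracellular matrix genes were lower in DR. Of 34 measured members 17 were lower and 0 higher, with a median of -0.63, and 30 of the 34 differences were below 0. Col6a1 and Col6a2, chains of collagen VI, the microfibrils around fat cells, were among them. Col6a1 lay at 11.05 to 12.20 (median 11.71) on DR arrays and 12.46 to 13.67 (median 13.25) on Rapa arrays without overlap (-1.36 ± 0.19, adjusted p = 2.17e-05), and Col6a2 differed by -1.30 ± 0.26 (adjusted p = 0.00128). Sparc, a collagen-binding matrix protein, lay at 11.63 to 12.93 (median 12.43) in DR and 12.58 to 13.76 (median 13.43) in Rapa (-0.93 ± 0.18, adjusted p = 0.000992). Col3a1, a fibrillar collagen, differed by -0.98 ± 0.22 (adjusted p = 0.00399). Col1a1, the main fibrillar collagen chain, overlapped (-1.02 ± 0.33, adjusted p = 0.0476) and lost the call in 11 of 16 fits leaving out 1 array, with adjusted p from 0.0194 to 0.109. With the 7 arrays left out 10 members were lower and 0 higher (median -0.58), and Col1a1 and Col3a1 were not among them (adjusted p = 0.6 and 0.0634). Within the 4 number classes the median was -0.85, -0.55, -0.59 and -0.45.

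Of the proteases of the matrix and their inhibitors, 3 of 14 measured members were lower and 0 higher (median -0.43). Beside Mmp12 these were 2 inhibitors. Timp1 lay at 5.49 to 7.14 (median 6.07) on DR arrays and 7.11 to 8.60 (median 8.19) on Rapa arrays, where the highest DR array, DR7 at 7.14, passed the lowest Rapa array (-1.91 ± 0.23, adjusted p = 2.43e-06). Timp4, an inhibitor abundant in fat, differed by -0.93 ± 0.24 (adjusted p = 0.0107). Fibroblast and progenitor markers had 1 of 14 lower and 0 higher (median -0.15). On the remaining arrays without those 7, limma called 5 of the proteases and inhibitors lower and 0 of the fibroblast markers, 2 of which had an unadjusted p under 0.05.

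Inflammatory mediators were lower in DR at 11 of 23 measured genes and higher at 0 (median -0.72). Ccl7, a chemokine that attracts monocytes, lay at 4.84 to 7.14 (median 5.87) on DR arrays and 7.48 to 9.75 (median 8.43) on Rapa arrays without overlap (-2.63 ± 0.37, adjusted p = 2.23e-05). Ccl8, of the same family, lay at 5.71 to 7.33 (median 6.33) in DR and 7.42 to 9.58 (median 8.15) in Rapa without overlap (-2.16 ± 0.33, adjusted p = 8.35e-05). Cxcl1, which attracts neutrophils, was detected on 3 of 8 DR arrays and all Rapa arrays and did not overlap (-2.17 ± 0.28, adjusted p = 7.03e-06). Ccl2, the best known monocyte chemokine of fat, was detected on 1 DR array and 7 Rapa arrays (-1.02 ± 0.27, adjusted p = 0.015), and Ccl12 on 3 DR and 7 Rapa arrays (-1.36 ± 0.28, adjusted p = 0.00155). After removal of the 7 arrays 6 genes of the list were lower and 0 higher, with Ccl2 and Ccl12 no longer called (adjusted p = 0.159 and 0.0999).

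Macrophage markers were lower at 9 of 24 measured genes and higher at 0 (median -0.55). Trem2, a lipid receptor of macrophages in fat, lay at 5.76 to 6.86 (median 6.25) in DR and 6.75 to 9.48 (median 7.84) in Rapa (-1.56 ± 0.30, adjusted p = 0.000776). Gpnmb, a lysosomal glycoprotein of lipid-laden macrophages, lay at 6.77 to 8.97 (median 8.02) on DR arrays and spread more widely, over 7.72 to 12.08 (median 10.07), on Rapa arrays (-2.16 ± 0.49, adjusted p = 0.00387). It was not called without the 7 arrays (-1.25, adjusted p = 0.234). Ms4a7 and Mpeg1, membrane and pore proteins of macrophages, differed by -1.03 ± 0.20 and -1.30 ± 0.32 (adjusted p = 0.00104 and 0.00855). The defining markers Adgre1 and Csf1r were detected on all arrays and did not pass (-0.76 ± 0.30 and -0.40 ± 0.17). The summed intensity of the 24 markers was 60324 to 77964 on DR arrays and 66922 to 100886 on Rapa arrays. Such a sum is set mainly by its brightest members, which other cell types may share, and its overlap is not read as a measure of macrophages. The median level of the 24 markers on an array was 7.84 to 9.03 in DR and 7.88 to 9.64 in Rapa, and these ranges overlapped too. Without the 7 arrays 6 markers were lower, Mpeg1 not among them (-0.74, adjusted p = 0.204), and in the fit blocked by number class 13. The part of macrophage number in the inflammatory and matrix results was not tested.

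Genes of antigen presentation were lower at 4 of 18 and higher at 0 (median -0.28), led by H2-DMb1 and H2-DMb2, chains that load peptides onto class II molecules (-1.03 ± 0.22 and -1.19 ± 0.26, adjusted p = 0.00223 and 0.00356); 5 were lower without the 7 arrays. Interferon-stimulated genes had 0 of 20 called by limma and 2 at an unadjusted p under 0.05 (median -0.09). Among eosinophil and mast cell markers 1 of 8 was lower, Rnase2a, an eosinophil ribonuclease detected on 3 DR arrays and all Rapa arrays (-3.04 ± 0.50, adjusted p = 0.000171). Its paralogs share sequence, so that a probe may read several of them. The median of the 8 eosinophil and mast cell markers was -0.61, with 7 differences below 0 and 5 at an unadjusted limma p under 0.05. The fit blocked by number class called 3 of them lower. Among lymphocyte markers 1 of 8 was lower, Cd3d, detected on 0 DR and 5 Rapa arrays, for which no fold is given because the Rapa mean does not clear the DR background. Its adjusted p of 0.0459 lost the call in 12 of 16 fits leaving out 1 array, with a range of 0.0267 to 0.103, and also without the 7 arrays (adjusted p = 0.208). Endothelial, mesothelial and erythrocyte markers had 0 of 17, 0 of 12 and 0 of 3 called by limma, with 0, 2 and 0 at an unadjusted p under 0.05. Interferon-stimulated genes, eosinophil and mast cell markers and endothelial markers each had 1 member lower and 0 higher without the 7 arrays. Cell cycle genes had 5 of 24 lower and 0 higher (median -0.29): Cdkn1a, which halts the cycle, and Mcm2, Mcm5, Mcm6 and Top2a, which serve replication. Top2a was detected on 0 DR arrays and 6 Rapa arrays. Mcm2 was named with its value in view, and Mcm6 lost its call in 6 of 16 fits leaving out 1 array (adjusted p up to 0.0663). When the 7 arrays were dropped 4 were lower. Mcm5 (-0.86 against -0.80 in the full fit, adjusted p = 0.0666) and Top2a (adjusted p = 0.122) were not among them. In the fit blocked by number class 9 were lower.

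**Figure D4:**
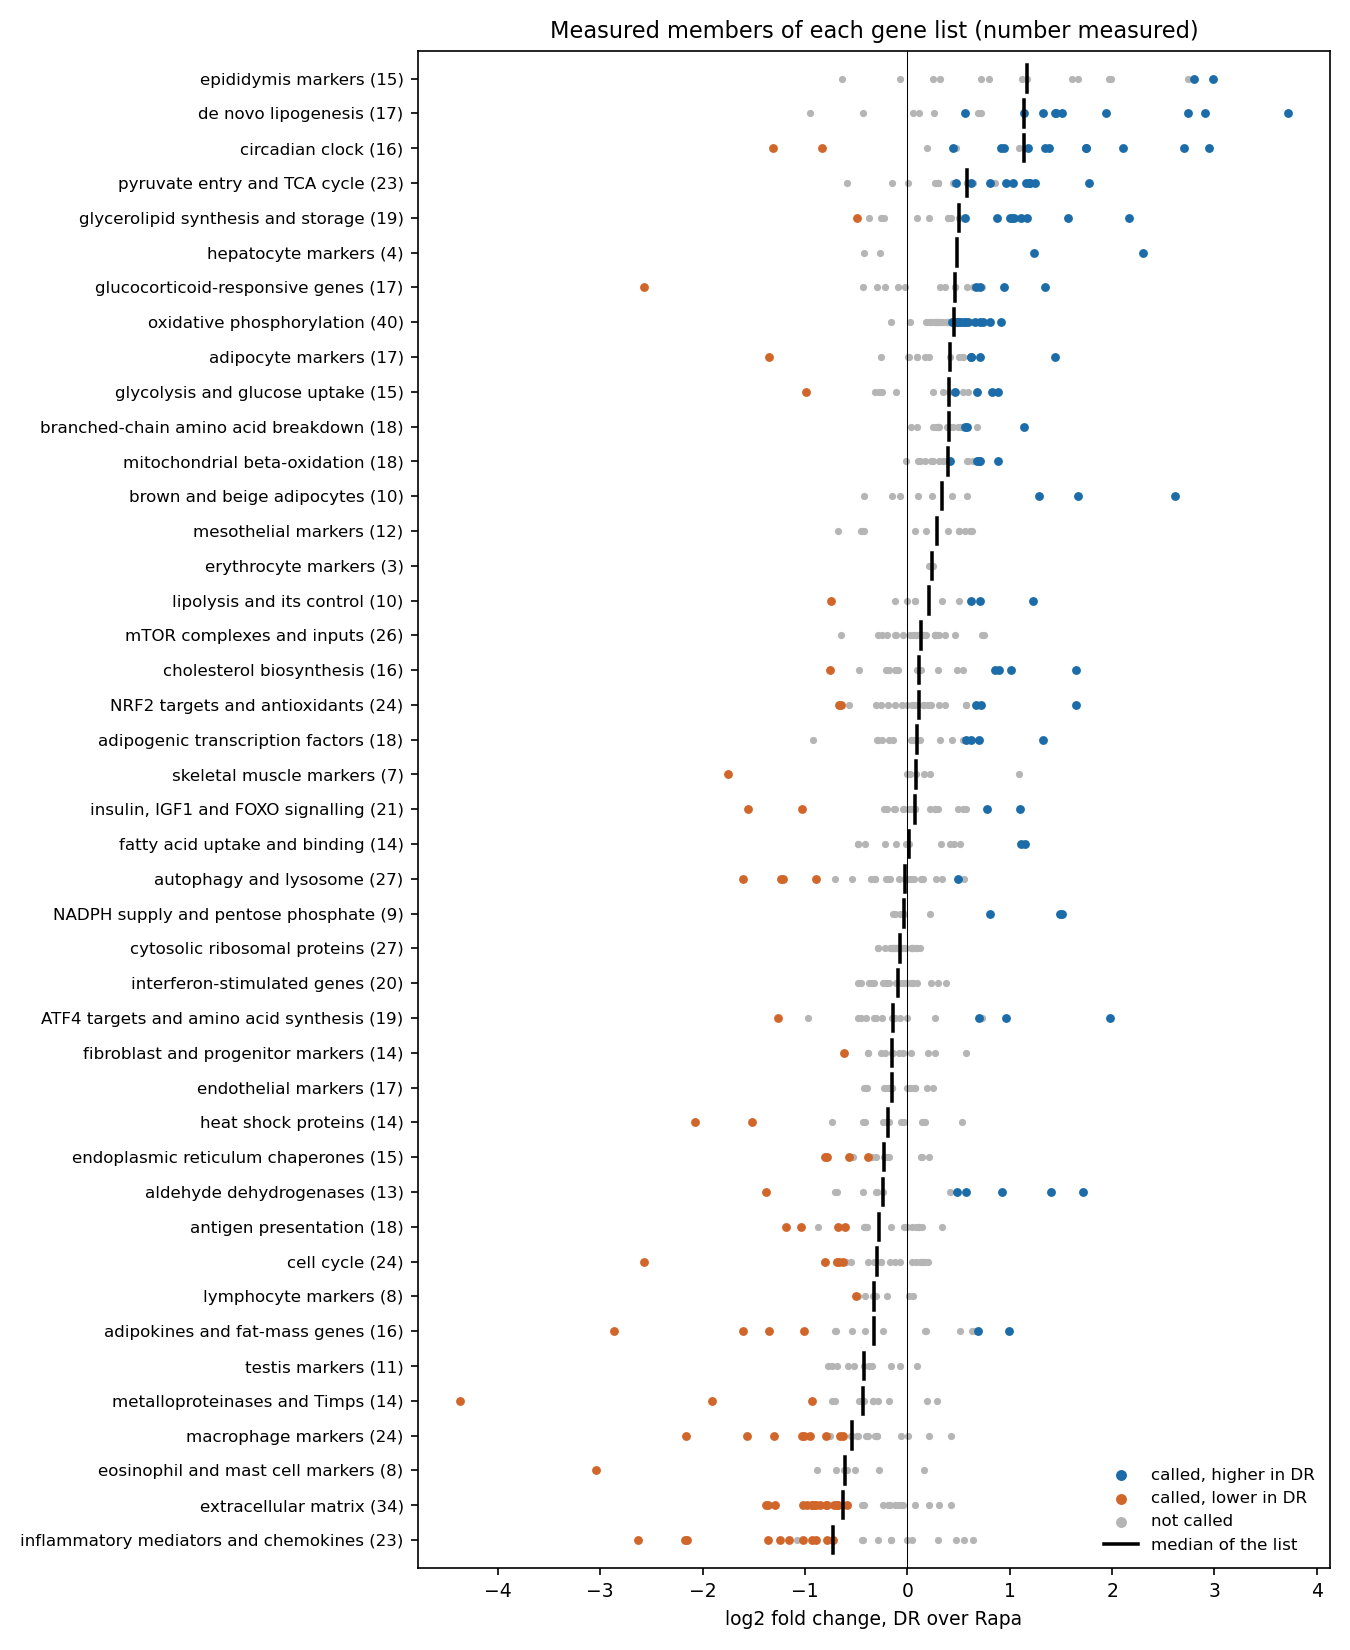
Log2 fold change of DR over Rapa (x axis) for every measured member of 43 gene lists (y axis, number measured in brackets), with a bar at each list's median. Medians run from -0.72 for inflammatory mediators to 1.17 for epididymis markers, with 1.14 for de novo lipogenesis and for the circadian clock.

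No measured transcript of the mTOR list passed the test over all arrays. The list of mTOR complexes and inputs had 0 of 26 measured members called by limma, with 4 at an unadjusted p under 0.05 (median 0.14), and at 15 of the 26 the 95% interval lay inside 1.5-fold in either direction, beside 3849 of all 9836 genes (39.1%). Mtor, the kinase, lay at 8.42 to 9.44 (median 8.93) on DR arrays and 8.13 to 9.21 (median 8.90) on Rapa arrays, with a difference of 0.11 ± 0.17 and an interval of -0.24 to 0.47. Rptor and Rictor, the subunits that define the 2 complexes, differed by 0.27 ± 0.19 and 0.19 ± 0.15, with intervals of -0.12 to 0.67 and -0.13 to 0.50. Fkbp1a, the receptor of rapamycin, differed by -0.04 ± 0.16, with an interval of -0.37 to 0.29. The highest differences were at Eif4ebp1, the translation repressor that mTOR phosphorylates, and Ddit4, a stress-induced inhibitor of the pathway that was chosen after its value was seen. They differed by 0.75 ± 0.29 and 0.72 ± 0.24 with adjusted p-values of 0.116 and 0.0506. Both were called without the 7 arrays (1.06 and 1.13, adjusted p = 0.0229 and 0.0113), and the block by number class called both too (0.75 and 0.72, adjusted p = 0.0389 and 0.0225). Protein level and phosphorylation were not measured here.

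Cytosolic ribosomal proteins had 0 of 27 members called by limma, 0 at an unadjusted p under 0.05, a median of -0.07 and differences from -0.29 to 0.12. At 24 of the 27 the interval lay inside 1.5-fold. Rps6, the ribosomal protein whose phosphorylation reports mTOR activity, lay at 11.91 to 12.64 (median 12.31) in DR and 11.998 to 12.53 (median 12.21) in Rapa (0.04 ± 0.13, interval -0.23 to 0.32). Rps29 and Gabarap, an autophagosome protein, also had intervals inside 1.5-fold, at -0.14 ± 0.11 and -0.17 ± 0.11. They took 14 and 15 distinct values on the 16 arrays, and Rps29 ranked from 21 to 66 in brightness, close to the top of the scale.

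Autophagy and lysosome genes had 1 of 27 measured members higher and 4 lower (median -0.03). The lower ones were Trp53inp2 and the cathepsins Ctsa, Ctss and Ctsk (-0.89 ± 0.18, -1.22 ± 0.33 and -1.24 ± 0.31, adjusted p = 0.00108, 0.0169 and 0.00812). Ctss and Ctsk are lysosomal proteases of macrophages and osteoclasts. All 3 cathepsins lost the call without the 7 arrays (adjusted p = 0.0648, 0.166 and 0.274), and the list then had 1 lower and 0 higher. Sqstm1, the autophagy receptor p62, lay at 11.24 to 11.95 (median 11.66) in DR and 11.31 to 11.96 (median 11.57) in Rapa (0.01 ± 0.14, interval -0.27 to 0.29).

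Stress pathways were split. ATF4 targets had 3 of 19 measured members higher and 1 lower (median -0.14). Chac1, which degrades glutathione, lay at 8.84 to 10.89 (median 10.16) in DR and 6.93 to 8.77 (median 8.39) in Rapa without overlap (1.97 ± 0.27, adjusted p = 2e-05). Asns, asparagine synthetase, was higher (0.96 ± 0.22, adjusted p = 0.00367), whereas Atf3, a stress-induced factor detected on 3 DR arrays and all Rapa arrays, was lower (-1.26 ± 0.29, adjusted p = 0.00461). This list also had 3 higher and 1 lower without the 7 arrays, but Atf3 was not called (-0.94, adjusted p = 0.114). Chaperones of the endoplasmic reticulum had 4 of 15 lower and 0 higher (median -0.22), among them Creld2 (-0.78 ± 0.18, adjusted p = 0.00575) and Pdia3, a disulfide isomerase (-0.57 ± 0.15, adjusted p = 0.0111); 2 were lower without the 7 arrays, and Pdia3 was not called (adjusted p = 0.102). Heat shock proteins had 2 of 14 lower and 0 higher (median -0.19), Hspb7 and Cryab, small chaperones of muscle and lens (-1.51 ± 0.33 for Cryab, adjusted p = 0.0033). Cryab was lost without the 7 arrays (adjusted p = 0.0878), which left 1 lower. Targets of NRF2 and antioxidant genes had 3 of 24 higher and 2 lower (median 0.11), with Gsta4, a glutathione transferase that clears lipid aldehydes, at 8.05 to 8.80 (median 8.47) in DR and 6.08 to 7.66 (median 6.93) in Rapa without overlap (1.64 ± 0.21, adjusted p = 4.55e-06). After removal of the 7 arrays 3 of these were higher and 1 lower.

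Aldehyde dehydrogenases had 5 of 13 measured members higher and 1 lower (median -0.24). Aldh1a7, a cytosolic member close in sequence to Aldh1a1, lay at 10.01 to 10.90 (median 10.45) in DR and 8.09 to 9.64 (median 8.73) in Rapa without overlap (1.71 ± 0.21, adjusted p = 3.61e-06). Aldh1l1, of folate metabolism, was higher without overlap (1.41 ± 0.23, adjusted p = 0.000157). Aldh3b1 was lower, at 7.13 to 7.94 (median 7.54) in DR and 8.28 to 9.45 (median 8.92) in Rapa without overlap (-1.38 ± 0.17, adjusted p = 3.3e-06); 1 of its 3 kept probes was called. After removal of the 7 arrays 2 members were higher and 1 lower.

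Markers of tissue other than fat were read on every array. Epididymis markers had 2 of 15 measured members higher and 0 lower, with a median of 1.17, and testis markers 0 of 11 called by limma and 1 at an unadjusted p under 0.05 (median -0.42). Fitted on the 16 arrays alone, 0 epididymis markers were called and 4 had an unadjusted p under 0.05. Without the 7 arrays 3 epididymis markers were called higher and 0 lower, with a median of 0.82, and DR7, described below, is among the arrays kept. Within the 4 number classes the median of the epididymis list was 4.75, -2.46, 2.80 and -0.03, so its sign differed between classes. The median of the epididymis markers on an array averaged 6.24 ± 1.57 on DR arrays and 5.13 ± 0.78 on Rapa arrays (SD, n = 8 each, exact two-sided permutation p = 0.0873, adjusted p over 4 measures 0.349). That of the testis markers averaged 5.09 ± 0.51 on DR arrays and 5.30 ± 0.72 on Rapa arrays (exact p = 0.525, adjusted p = 0.591). The summed intensity of the epididymis markers ran from 922 to 66650 on DR arrays and from 409 to 104649 on Rapa arrays. Defb20, an epididymal defensin, exceeded a level of 8 on 4 DR arrays and 1 Rapa array and differed by 2.99 ± 0.87 (adjusted p = 0.0268); its call was lost in 6 of 16 fits leaving out 1 array, with adjusted p up to 0.0658. Spag11b, a further defensin-like gene of the epididymis, was detected on 5 DR and 2 Rapa arrays and lost its call in 10 of 16 such fits (2.80 ± 0.89, adjusted p = 0.0424, up to 0.102). DR7, which is not among the 7 arrays, had 11.18 for Defb20, 10.50 for Spag11b and 11.58 for Lcn8, a lipocalin of the epididymis. When DR7 was dropped along with the 7 arrays, 706 genes were called, 491 of them among the 1123.

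**Figure D5:**
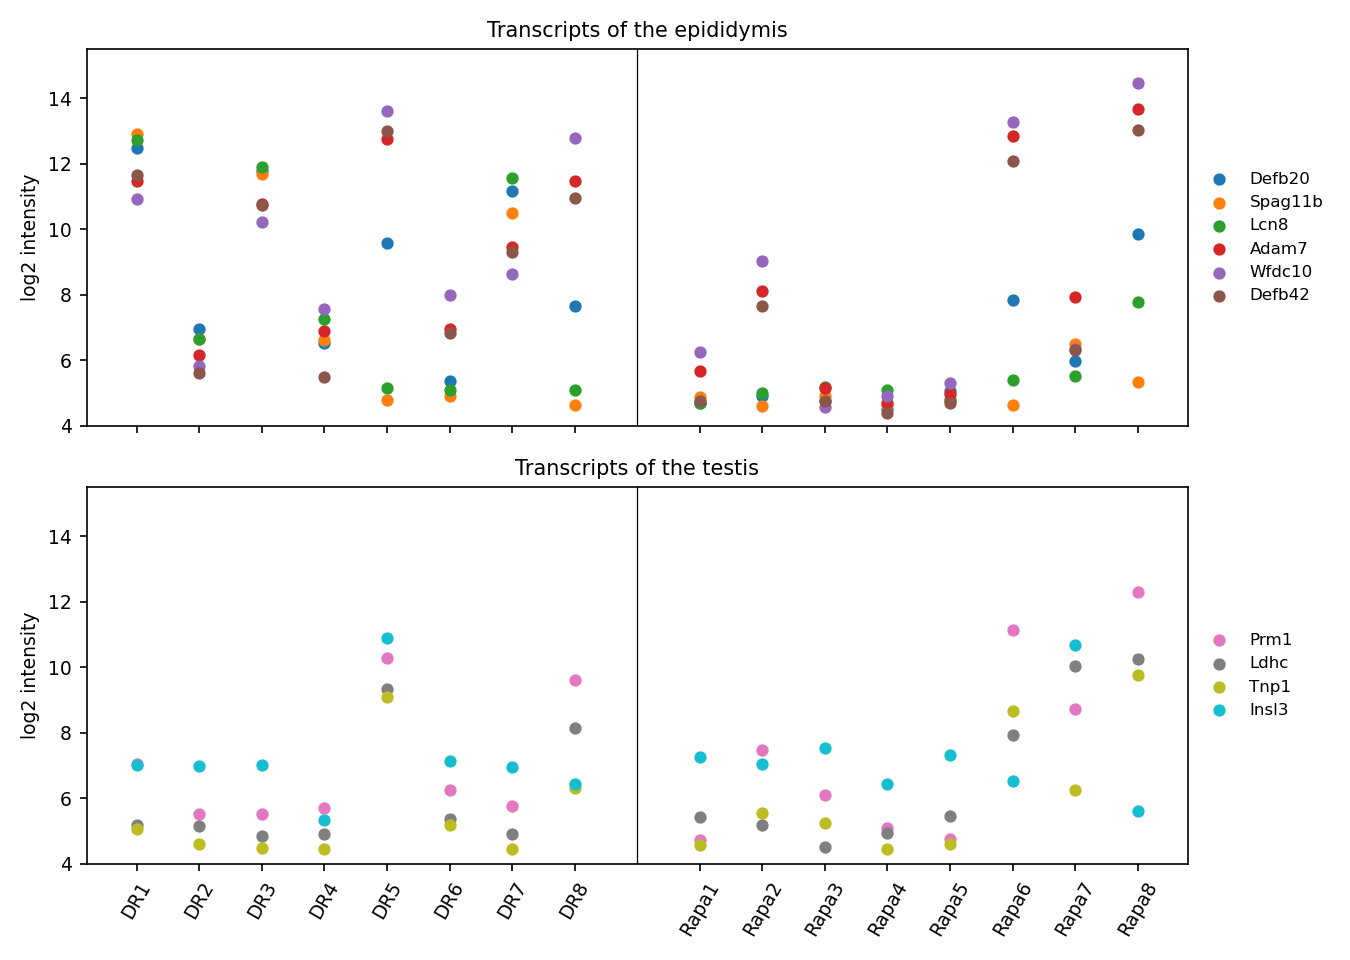
Log2 intensity (y axis) of 6 transcripts known from the epididymis (top) and 4 known from the testis (bottom) on each DR array (left of the line) and each Rapa array (right). Spag11b and Lcn8 exceed a level of 8 on DR1, DR3 and DR7 and on no Rapa array, whereas Wfdc10 exceeds 12 on DR5, DR8, Rapa6 and Rapa8.

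Some called genes depended on those arrays in size. The 5 called genes with the largest fold change whose difference fell below 50% of its full value without the 7 arrays were Pcsk6, a proprotein convertase (0.50 in place of 1.18 ± 0.31), Lpgat1, an acyltransferase of lysophospholipids (-0.48 in place of -1.17 ± 0.30), Bcat2, given above, Clmn, a membrane-bound actin-binding protein (0.52 in place of 1.12 ± 0.24), and Cnst, a secretory trafficking protein (0.45 in place of 1.06 ± 0.24). None of these 5 was called without the 7 arrays. Of 146 called genes that the rule for named genes takes in, 52 were not called without the 7 arrays. In at least 1 of the 16 fits that left out a single array 27 lost the call. These counts are not alike, since removing 7 arrays at once also leaves fewer arrays to test. Mcm5, for one, lost the call at -0.86 without the 7 arrays, against -0.80 in the full fit.

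Single genes known from muscle and liver were also called. Pvalb, the calcium buffer of fast muscle and of neurons, was the 1 called member of 7 measured skeletal muscle markers. It was detected on 0 DR arrays and on all 8 Rapa arrays, at 5.60 to 7.50 (median 6.92), and was at least 2.70-fold lower in DR (adjusted p = 5.77e-05), while the muscle markers Myl1 and Acta1 did not pass (0.03 ± 0.18 and 1.09 ± 0.42). Apoc3, an apolipoprotein of liver and gut, was the second called hepatocyte marker beside Cyp2e1, at 5.96 to 7.47 (median 6.92) in DR and 4.78 to 6.96 (median 5.44) in Rapa (1.24 ± 0.27, adjusted p = 0.00299), and 5 of 8 Rapa arrays detected it.

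Probes of a gene were seldom called in opposite directions. Of 444 called genes with more than 1 kept probe, 157 had all kept probes called in the same direction and 1 had a probe called in the opposite direction. A further 210 of 2448 kept probes without a gene name here were called. Arrays varied somewhat less within DR: the SD was larger in DR than in Rapa at 41.0% of genes, with a median SD of 0.386 in DR and 0.421 in Rapa. The 95% interval reached a median of 0.41 to either side of the estimate.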

How the data were processed

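Mouse Illumina bead arrays were read as the deposited table of background-subtracted intensity per probe, not scaled between arrays per the file headers, with 26.7% to 34.3% of values below 0 on each array. The deposited detection p-value of each probe on each array came from the same table. The authors' deposited processed values are a score within each array that matched a standardised log of intensity plus a constant of 99.06 to 188.9 to within 0.002072; its log base is not given in the sources used here, and it served as an alternative.

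Intensities were normalized with neqc of limma 3.58.1 in R 4.3.3 (offset 16) over 24 arrays. A probe was kept where 8 or more arrays had a detection p below 0.05 (17165 of 45281), and the brightest kept probe of a gene was used (9836 genes). Of all probes, 34885 had 1 gene symbol, 18 had several and 10378 were not listed. Group means were fitted with lmFit and eBayes, and p-values of DR minus Rapa were adjusted by Benjamini-Hochberg. The script was tested on simulated data. The members and lists were chosen with earlier results of these data known. Some genes belong to more than 1 list, so counts of different lists are not independent. The genes named were drawn by a rule. It takes the 12 highest and 12 lowest called genes without overlap and up to 4 called members of each direction per list. It also takes 46 genes set whatever their values and the 3 list members with the narrowest interval inside 1.5-fold. Last are the 5 called genes with the largest fold change whose difference fell below 50% of its value without the 7 arrays. Not every gene the rule takes in is named. Thbs1, Cyp51, Sod3 and H2-Ab1, for example, are left out, and each lost its call in some fits leaving out 1 array. Uncalled list members and markers named beside them were picked with their values in view. Alternatives covered normalization, filters, the fitted arrays, blocks, probe averaging, covariates, array weights and single arrays. Figures used matplotlib 3.10.9.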

Additional observations from a re-analysis of the deposited data

Results flagged for a closer look

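A single array stood far from the other 7 of its group in 21 of 324 group and gene pairs tested, 14 in DR and 7 in Rapa. The measure was Dixon's ratio at its 95% critical value, and chance alone passes it in about 1 in 20 groups. Values are log2 intensities with the value of the nearest array of the same group in parentheses. DR1 stood above the other arrays of its group at Arntl with 6.01 (nearest 5.13), Cyc1 with 11.63 (nearest 11.32) and Dnajc3 with 8.59 (nearest 8.23). DR2 stood above the other arrays of its group at Ccl2 with 5.61 (nearest 4.88). DR3 stood below the other arrays of its group at Rps29 with 13.75 (nearest 14.03). DR5 stood above the other arrays of its group at Creld2 with 8.55 (nearest 7.92), Hsd17b7 with 8.71 (nearest 7.89) and Mcm5 with 6.82 (nearest 6.41) and below them at Nampt with 6.75 (nearest 7.81), Pccb with 9.70 (nearest 10.23) and Slc27a1 with 9.81 (nearest 10.71). DR7 stood above the other arrays of its group at Mmp12 with 6.41 (nearest 5.19), Rgs1 with 6.04 (nearest 5.15) and Timp1 with 7.14 (nearest 6.2). Rapa7 stood above the other arrays of its group at Spag11b with 6.49 (nearest 5.35). Rapa8 stood above the other arrays of its group at Cxcl1 with 8.94 (nearest 7.89) and below them at Adipoq with 12.79 (nearest 13.44), Aldh1l1 with 6.28 (nearest 7.58), Gabarapl1 with 9.55 (nearest 10.07), Pcx with 6.77 (nearest 7.66) and Rarres2 with 11.75 (nearest 12.32).

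DR1, DR3, DR5, Rapa7 and Rapa8 are among the 7 arrays left out in the alternatives for epididymis and testis transcripts. DR7 is not among them but had 6 of 26 such markers above a level of 8, and DR2 had 0. The part of these transcripts in the distances was not tested.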

How the results depend on the processing

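The 1123 called genes kept their sign in every alternative tried, except that 1122 did when a gene's probes were averaged and 1121 without the 7 arrays and DR7. The stricter filter on dim probes kept 1066 of them. Every alternative refits arrays that gave the calls, and the blocks leave the estimates unchanged. Kept signs are therefore no independent support. Leaving out each array in turn gave 975 to 1217 called genes, 475 to 642 higher and 462 to 642 lower, and 3478 to 3643 genes whose 95% interval lay inside 1.5-fold, against 3849. Without the 7 arrays 335 genes were higher and 1869 were inside 1.5-fold. Without DR7 as well, 706 were called, 300 higher, and 1345 were inside 1.5-fold. With no filter on dim probes 19057 genes were tested, 927 were called and 12323 were inside 1.5-fold. Normalizing and fitting only the DR and Rapa arrays gave 887 called genes, 449 higher and 438 lower. Marker medians as covariates gave 853, 417 higher and 436 lower. The replicate block, which took the title number as a pair, gave 1765 called genes, 918 higher and 847 lower. The numbers were not taken as pairs, because not every correlation of same-numbered DR and Rapa arrays exceeded 0.1: 6 of 8 did, over a range of -0.05 to 0.52, and 4 of 8 DR arrays and 1 of 8 Rapa arrays matched their own number best. The number class as a block, chosen after seeing the data, gave 1887 called genes, 984 higher and 903 lower. Among list medians, insulin signalling became -0.19 without the 7 arrays and -0.22 without DR7 too, the clock 1.595 and 1.79, and brown and beige adipocytes -0.032 and -0.024. The stricter filter gave 0.086 for aldehyde dehydrogenases, -0.55 for the cell cycle and 1.77 for hepatocyte markers. No filter gave -0.38 for inflammatory mediators and -0.0405 for hepatocyte markers. Genes near 0 changed sign. Mtor became -0.14 without the 7 arrays, -0.19 without DR7 too and -0.019 with marker medians as covariates. Under the same settings Sqstm1 became -0.11, -0.17 and -0.089, and Lpl -0.011, -0.064 and -0.043, while Sqstm1 was -0.0056 with array weights. Pdk4 became -0.13 without the 7 arrays and DR7, Fkbp1a 0.022 under median scaling, Igf1 0.029 with probes averaged and Rps29 0.017 on the authors' score. With 1 array left out, Fkbp1a ran from -0.14 to 0.035, Rps6 from -0.00483 to 0.099, Sqstm1 from -0.038 to 0.065 and Lpl from -0.013 to 0.029. The cause of these changes was not tested. Signal near background and 8 arrays a group limit the precision.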
